A study of Mus musculus with 8 samples.

Results

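The aldo-keto reductases around Akr1b7 are 7 mouse genes, Akr1b7, Akr1b3, Akr1b8, Akr1b10, Akr1a1, Akr1e1 and Akr7a5, taken by name from the 55471 genes counted in hearts of WT and TAZG197V mice. The choice was made with their values in this comparison known, so their changes between the genotypes are given here as a description and carry no p-value. All 7 were among the 15084 genes that passed the filter on low counts. Hearts came from 4 WT and 4 TAZG197V mice at 14 weeks of age, and 1 library was made from a small piece of each heart. TAZG197V mice carry a CRISPR/Cas9 knock-in of a patient's glycine-to-valine exchange in Taz, the X-linked gene of Tafazzin, which remodels cardiolipin in mitochondria. Per the labels the edit was made in C57BL/6N zygotes, founders were crossed to C57BL6/J for 2 generations, and heterozygous mice were mated to obtain homozygous offspring, as the study's methods also state. Its results describe the TAZG197V mice as hemizygous males. No library received a treatment.

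Aldo-keto reductases are soluble enzymes that reduce aldehydes and ketones to alcohols with NADPH. Akr1b3 is aldose reductase, which turns glucose into sorbitol in the polyol pathway. Akr1b7 was first known as a protein of the mouse vas deferens and is also abundant in the adrenal cortex. Akr1b8 is a reductase inducible by fibroblast growth factor, and Akr1b10 is a further reductase of the same subfamily. Akr1a1 is aldehyde reductase, which reduces glucuronate on the way to ascorbate, Akr1e1 reduces 1,5-anhydrofructose and Akr7a5 reduces succinic semialdehyde and aflatoxin dialdehyde.

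The 4 Akr1b genes lie in tandem on chromosome 6 within 120709 bases (mm10, positions from GENCODE M21). Akr1b3 (ENSMUSG00000001642) spans 34302434 to 34317478 on the minus strand. On the plus strand follow Akr1b8 (ENSMUSG00000029762) from 34354119 to 34368463, Akr1b10 (ENSMUSG00000061758) from 34384218 to 34396950 and Akr1b7 (ENSMUSG00000052131) from 34412334 to 34423142. Akr1a1 (ENSMUSG00000028692) and Akr7a5 (ENSMUSG00000028743) are on chromosome 4, at 116636510 to 116651680 on the minus strand and 139310744 to 139318426 on the plus strand, and Akr1e1 (ENSMUSG00000045410) is on chromosome 13, at 4590750 to 4609174 on the minus strand. Counts were taken over the exons of each gene.

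Each Akr1b coding sequence has 951 bases and encodes 316 residues. Over the aligned coding bases, Akr1b7 was 89.3% identical to Akr1b10, 84.9% to Akr1b8 and 72.1% to Akr1b3. The stretches of 50 bases below, the length of a read, show how near the genes come to each other. They are the closest pairs of coding stretches between Akr1b7 and its neighbours, with differing bases in capitals and positions counted from the first coding base. The stretch of Akr1b7 from base 247 to 296 is the same in Akr1b10, that from 476 to 525 is the same in Akr1b8, and that from 115 to 164 differs from Akr1b3 at 7 bases.
Akr1b7 and Akr1b10: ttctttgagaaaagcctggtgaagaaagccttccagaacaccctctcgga
Akr1b7 and Akr1b8: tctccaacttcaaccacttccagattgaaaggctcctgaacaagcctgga
Akr1b7: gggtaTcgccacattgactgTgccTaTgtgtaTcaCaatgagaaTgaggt
Akr1b3: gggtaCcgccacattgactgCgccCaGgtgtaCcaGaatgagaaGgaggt

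Of all 50-base windows of the longest coding Akr1b7 transcript, 2.52% occur without a mismatch in another annotated gene and 21.51% with at most 2 mismatches, the limit set for alignment. The corresponding shares were 3.21% and 20.7% for Akr1b8, and 3.18% and 29.5% for Akr1b10. For Akr1b3 they were 59.94% and 67.41%, and 12 pseudogenes hold such windows. These pseudogenes had at most 2 counts in a library and 10 counts over all 8 libraries. The handling of reads that match several genes was not stated, so counts from these stretches are uncertain. In addition, 348 of the 1281 exon bases of Akr1b7 overlap Gm13857, a pseudogene on the opposite strand with at most 1 count in a library. For Akr1a1, Akr1e1 and Akr7a5, the windows found elsewhere with at most 2 mismatches came to 0%, 2.05% and 1.29%.

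Next, the 250 bases before the gene start in RefSeq (GRCm38.p6) were read, which held a window for 6 of the 7 members. RefSeq's start differs from that of GENCODE given above, so the last bases of the windows shown lie inside the GENCODE gene, and motif distances are counted from RefSeq's start. Those of the 3 plus-strand Akr1b genes are shown because these genes are adjacent and differ in the direction of their change. Capitals mark matches to the motifs searched on both strands.
Akr1b8, chr6:34353896-34354145, plus strand: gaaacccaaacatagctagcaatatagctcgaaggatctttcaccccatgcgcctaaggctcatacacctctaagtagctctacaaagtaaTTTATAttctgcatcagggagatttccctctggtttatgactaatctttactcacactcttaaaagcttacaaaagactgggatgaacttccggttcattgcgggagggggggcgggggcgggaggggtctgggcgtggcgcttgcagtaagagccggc
Akr1b10, chr6:34383997-34384246, plus strand: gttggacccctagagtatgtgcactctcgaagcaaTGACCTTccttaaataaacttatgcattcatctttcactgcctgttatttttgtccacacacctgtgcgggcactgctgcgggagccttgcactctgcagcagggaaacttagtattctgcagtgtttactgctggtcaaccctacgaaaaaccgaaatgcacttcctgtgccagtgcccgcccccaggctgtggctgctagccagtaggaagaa
Akr1b7, chr6:34412112-34412361, plus strand: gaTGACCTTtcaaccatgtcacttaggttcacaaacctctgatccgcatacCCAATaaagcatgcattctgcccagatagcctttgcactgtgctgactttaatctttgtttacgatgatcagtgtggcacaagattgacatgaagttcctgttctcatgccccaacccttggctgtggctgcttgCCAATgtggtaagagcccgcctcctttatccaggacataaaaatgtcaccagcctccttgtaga

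The motifs were AAGGTCA, the half-site of NR5A nuclear receptors, TATAAA, the TATA box, CCAAT, the amino acid response element TGATGNAA and the antioxidant response element TGACNNNGC. AAGGTCA was found once, on the minus strand, in Akr1b7, 248 to 242 bases before the start, and once in Akr1b10, 215 to 209 bases before it. Of 32851 RefSeq windows of this length, 4.08% hold this motif. Akr1b8 held TATAAA on the minus strand (12.37% of windows), and CCAAT occurred 2 times in Akr1b7 and 3 times in Akr1e1 (33.85% of windows). TGATGNAA and TGACNNNGC, held by 3.45% and 10.16% of windows, were found in none of the 6 windows. The longest run shared by the Akr1b7 and Akr1b10 windows was GGCTGTGGCTGCT, 13 bases long, against at most 9 bases between either of them and Akr1b8. Windows of Akr1b7, Akr1b8 and Akr1b10 held 3, 9 and 6 CpG dinucleotides, where the median window held 6.

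Total counts per library ran from 23055689 to 36301031. Levels are given as CPM, which is the count scaled to the library size after TMM normalization, and errors are SDs over 4 libraries. Myh6, the heart's main myosin heavy chain gene, was at 18300 to 26600 CPM in all libraries. Taz was at 58.7 to 63.8 CPM in WT and 44.3 to 50.4 CPM in TAZG197V, and these counts do not show the edited base. In WT 4, 5% of counts fell on haemoglobin genes, against at most 0.096% in any other library, and both number 4 libraries differed most from the other libraries of their genotype. Lane 7 of the sequencer held the libraries numbered 1 and 2 of both genotypes, and lane 8 those numbered 3 and 4. In such pieces of whole tissue, fewer cells of a type and less RNA per cell cannot be told apart. The p-values set the difference between the genotypes against the spread between these mice that the fit leaves unexplained.

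To describe the members, counts were fitted by genotype with 2 surrogate variables, which stand for variation that genotype does not explain. A gene was called when its adjusted p was under 0.05, its fitted change was over 0.20 on the log2 scale, up or down, and its mean scaled count was at least 50. A call was made for all 7 members, with 4 higher and 3 lower in TAZG197V, where 33.5% of all tested genes were called, 18.5% higher and 15.1% lower. In all 7 the values of the 2 genotypes did not overlap, which held for 33.2% of tested genes. The fitted log2 fold changes ran from -0.70 to 7.49 with a median of 0.32, beside a median of -0.01 over all tested genes. Since the members were chosen on this contrast, nothing is read from these shares.

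**Figure D1:**
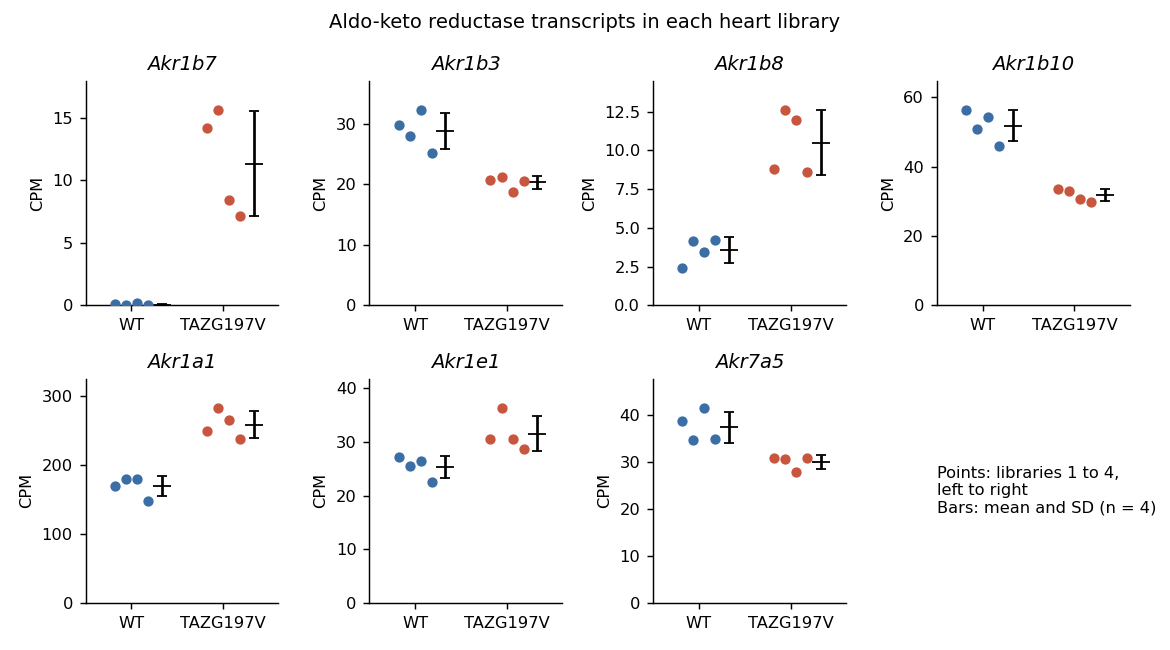
Level of each member in CPM (vertical axes, each from 0) in the 4 WT and 4 TAZG197V libraries, with the mean and SD (n = 4) beside the points. The points of the 2 genotypes do not overlap for any of the 7 genes, and Akr1b7 is near 0 in WT.

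Akr1b7 was nearly absent from WT hearts. Its counts in WT 1 to WT 4 were 2, 0, 4 and 0, and those in TAZG197V 1 to TAZG197V 4 were 392, 579, 262 and 194. All TAZG197V libraries thus held at least 194 counts where no WT library held more than 4. Scaled to library size, Akr1b7 averaged 0.0557 ± 0.0737 CPM over the WT and 11.4 ± 4.2 CPM over the TAZG197V libraries (SD, n = 4 each). The summed counts of 6 and 1427 gave a ratio of 221 after scaling, with an exact 95% interval from 101 to 603 that covers counting error only. The fitted log2 fold change was 7.49 (standard error 0.49), which ranked the gene at place 7 of all tested genes by fitted rise. This estimate rests on few WT counts and ran from 7.10 to 8.78 over 19 alternatives.

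Among TAZG197V hearts, Akr1b7 was the most variable member. Its highest library was 2.2 times its lowest, against 1.47 times for Akr1b8 and at most 1.26 times for the other 5 members. Both TAZG197V libraries of lane 7 were higher, at 14.2 and 15.6 CPM, than those of lane 8, at 8.45 and 7.11 CPM. The part of the sequencing lane in this spread was not tested. Within lane 7 the means were 0.0338 CPM in WT and 14.9 CPM in TAZG197V, and within lane 8 they were 0.0777 and 7.78 CPM, with 2 libraries per genotype in each lane.

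Akr1b8, the inducible reductase, was also higher in TAZG197V. It was at 2.4, 4.18, 3.46 and 4.2 CPM in WT 1 to WT 4, and at 8.79, 12.6, 12.0 and 8.58 CPM in TAZG197V 1 to TAZG197V 4. The lowest TAZG197V library was thus above the highest WT library, on counts of 234 to 466 against 71 to 152. The fitted log2 fold change was 1.56 (standard error 0.22.) TAZG197V 2 was the highest library for both Akr1b7 and Akr1b8, but the remaining libraries were ordered differently, since TAZG197V 3 was high for Akr1b8 and low for Akr1b7.

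Akr1b10 and Akr1b3, the most abundant genes of the cluster in WT, were lower in TAZG197V. Akr1b10 was at 56.3, 50.9, 54.4 and 45.9 CPM in WT 1 to WT 4 and at 33.5, 33.1, 30.6 and 29.9 CPM in TAZG197V 1 to TAZG197V 4. Its fitted log2 fold change was -0.70 (standard error 0.0685.) Akr1b3, aldose reductase, was at 29.8, 27.9, 32.2 and 25.2 CPM in WT 1 to WT 4 and at 20.7, 21.2, 18.7 and 20.5 CPM in TAZG197V 1 to TAZG197V 4. The gap between the genotypes was narrower than for Akr1b10, and the fitted log2 fold change was -0.50 (standard error 0.0871.) In both genes WT 4 was the lowest WT library.

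Outside the cluster, Akr1a1 was the most abundant member. This aldehyde reductase was at 169, 179, 179 and 148 CPM in WT 1 to WT 4 and at 249, 282, 264 and 237 CPM in TAZG197V 1 to TAZG197V 4. With at least 3306 counts in every library it is the best counted member, and its log2 fold change was 0.63 (standard error 0.0612.) Akr1e1, the anhydrofructose reductase, was at 27.1, 25.5, 26.4 and 22.5 CPM in WT and at 30.6, 36.3, 30.5 and 28.7 CPM in TAZG197V. Its lowest TAZG197V library was close to its highest WT library, and its log2 fold change was 0.32 (standard error 0.0761.) Akr7a5 was at 38.6, 34.5, 41.4 and 34.8 CPM in WT and at 30.8, 30.6, 27.7 and 30.8 CPM in TAZG197V, with a log2 fold change of -0.33 and a standard error of 0.0793. Neither of these 2 genes, nor Akr1b3, passed a fold change of 1.5.

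**Figure D2:**
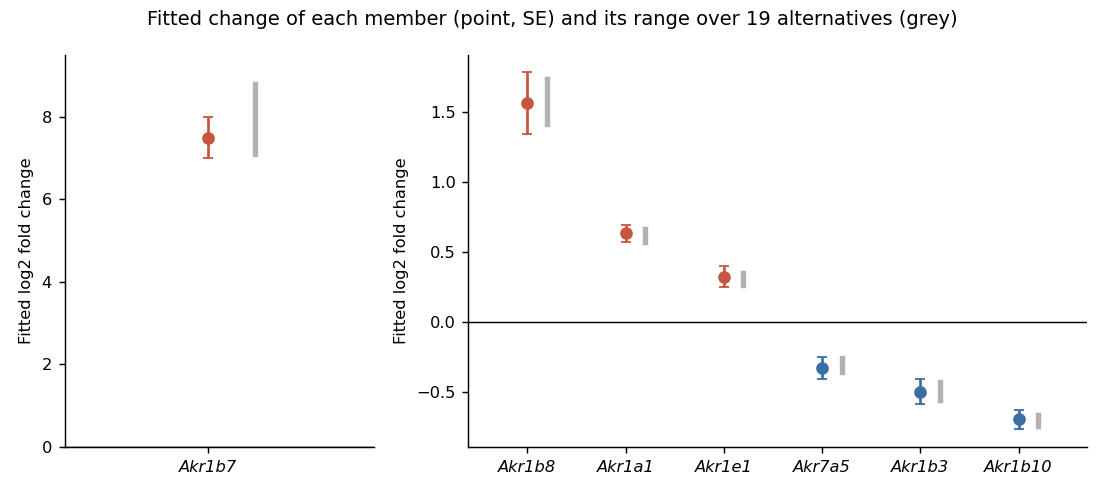
Fitted log2 fold change of TAZG197V against WT for each member (vertical axes, which differ between the panels), with its standard error, and as a grey bar the range over 19 alternatives. Akr1b7 is at 7.49 in the left panel, and in the right panel 3 genes lie above 0 and 3 below it, none with a range that reaches 0.

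In each of the 19 alternatives the direction of every member stayed as given. All 7 were called in 18 of them, and with a fold change of 1.5 only Akr1b7, Akr1b8, Akr1a1 and Akr1b10 were. Alternatives that changed only the limit on fold change or mean count reused the main fit, so no direction could change there. Without both number 4 libraries all 7 were called as well. Within each lane, the genotypes did not overlap for any member, and the log2 ratio of mean CPM was for example 1.70 in lane 7 and 1.43 in lane 8 for Akr1b8 and -0.69 and -0.73 for Akr1b10.

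To compare levels between genes, CPM was divided by the length in kilobases of the longest coding transcript. In WT, Akr1a1 was highest at 119 ± 10.5, followed by Akr1b10 at 37.8 ± 3.35, Akr7a5 at 29 ± 2.57, Akr1b3 at 20.7 ± 2.15, Akr1e1 at 7.34 ± 0.583, Akr1b8 at 2.62 ± 0.622 and Akr1b7 at 0.0435 ± 0.0575 CPM per kilobase (SD, n = 4 each). Neighbours in this order did not overlap. In TAZG197V, Akr1a1 was at 182 ± 13.7, Akr7a5 at 23.3 ± 1.19, Akr1b10 at 23.2 ± 1.31, Akr1b3 at 14.6 ± 0.786, Akr1e1 at 9.10 ± 0.951, Akr1b7 at 8.87 ± 3.28 and Akr1b8 at 7.72 ± 1.54 CPM per kilobase. Here Akr7a5 and Akr1b10 overlapped, as did Akr1e1, Akr1b7 and Akr1b8. The order depends on the length taken, since the union of all annotated exons of Akr1b3 has 8384 bases and its longest coding transcript 1387. Per kilobase of that union Akr1b3 was at 3.43 in WT and 2.42 in TAZG197V, below Akr1e1 in both. Akr7a5, at 20.8 ± 1.85 in WT, then stood above Akr1b10 at 14.7 ± 1.3, with no overlap of the 4 libraries, and the same held in TAZG197V at 16.7 ± 0.853 and 8.99 ± 0.508 (SD, n = 4 each).

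The sum over the 4 Akr1b genes turned with the length taken. The genes together were at 61.2 ± 4.92 CPM per kilobase of coding transcript in WT and 54.4 ± 5.58 in TAZG197V, and these sums overlapped between the genotypes, with a range of 54.7 to 65.6 against 48.5 to 60.9. Per kilobase of the union of exons, the sum was instead higher in TAZG197V, at 27.3 ± 4.44 against 20.5 ± 1.26 in WT, and the ranges of 22.2 to 32.5 and 18.8 to 21.7 did not overlap. With no division by length, the summed level was 84.2 ± 6.81 CPM in WT and 73.9 ± 7.42 in TAZG197V, with overlap (SD, n = 4 each). The make-up of the sum differed between the genotypes on both lengths. Per kilobase of coding transcript, the length chosen after seeing the data, the shares were as follows. Akr1b10 was 61.8% ± 1.43 of the sum in WT and 42.8% ± 2.24 in TAZG197V, and Akr1b3 was 33.9% ± 1.04 and 27% ± 2.38. Akr1b7 went from 0.0668% ± 0.0878 to 16.0% ± 4.4, and Akr1b8 from 4.34% ± 1.3 to 14.2% ± 2.54 (SD, n = 4 each). Per kilobase of the union of exons, Akr1b7 went from 0.202% ± 0.266 to 31.7% ± 7.25, Akr1b8 from 11.7% ± 3.26 to 25.8% ± 4.52, Akr1b10 from 71.4% ± 2.74 to 33.4% ± 3.82 and Akr1b3 from 16.7% ± 0.781 to 9.03% ± 1.39. For each of the 4 genes, the shares did not overlap between the genotypes on either length. As shares of 1 sum, these values depend on each other.

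**Figure D3:**
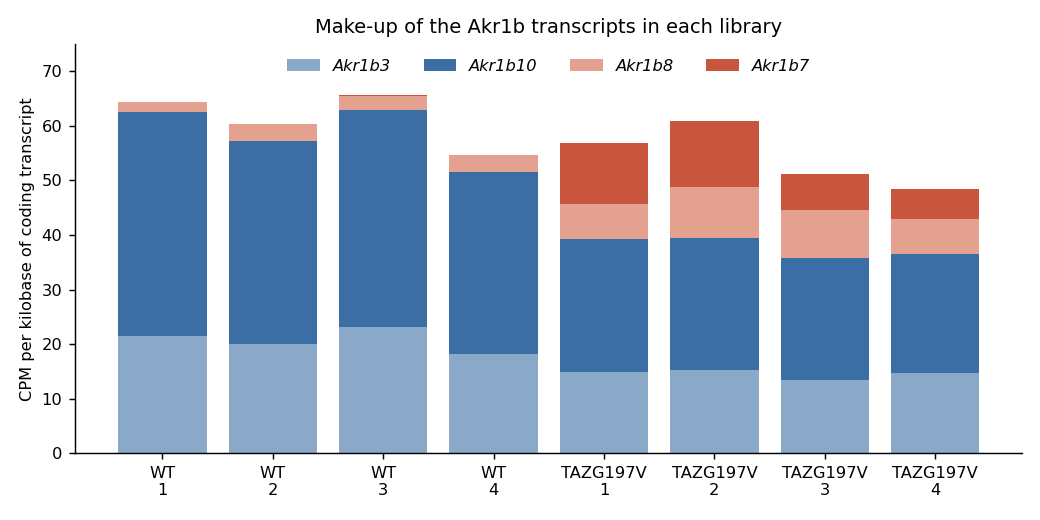
Levels of the 4 Akr1b genes in CPM per kilobase of coding transcript (vertical axis), stacked for each of the 8 libraries. On this length the stacks run from 54.7 to 65.6 in WT and from 48.5 to 60.9 in TAZG197V, whereas per kilobase of the union of exons all TAZG197V sums lie above all WT sums, and Akr1b7 and Akr1b8 fill more of the stacks in TAZG197V.

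The neighbourhood of the cluster was examined for genes that moved with it. Of 14 other protein-coding genes with a start within 1 Mb of the cluster, 12 were tested, and their median log2 fold change was 0.04. Of these 1 was called, or 8.33% of those tested against 33.5% of all tested genes. This was Cald1, which encodes caldesmon, an actin-binding protein, with a log2 fold change of -0.48 and an edgeR adjusted p of 0.00107. Bpgm, the next gene after Akr1b7 and the enzyme of 2,3-bisphosphoglycerate in red cells, was at 1430 CPM in WT 4, the library with the most haemoglobin, and at 19.1 to 43.0 CPM in the other 7 libraries. Its log2 fold change was -2.65 (edgeR adjusted p = 0.0506). It was called lower by DESeq2, with DESeq2 size factors, without a low-count filter, and without WT 3, WT 4, TAZG197V 4 or both number 4 libraries. The log2 fold change was -0.52 without WT 4, -0.72 without TAZG197V 4 and -0.46 without both number 4 libraries. Lrguk and Slc13a4 passed the adjusted p and were higher (log2 fold changes 1.55 and 0.98, edgeR adjusted p = 0.00344 and 0.0361), but at means of at most 0.616 CPM they had too few counts for a call. The genotypes did not overlap for Lrguk and overlapped for Slc13a4. Slc35b4, a nucleotide sugar transporter and the nearest of these genes beyond Akr1b3, was at 10.6 ± 0.995 CPM in WT and 11.0 ± 0.433 CPM in TAZG197V (log2 fold change 0.07).

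**Figure D4:**
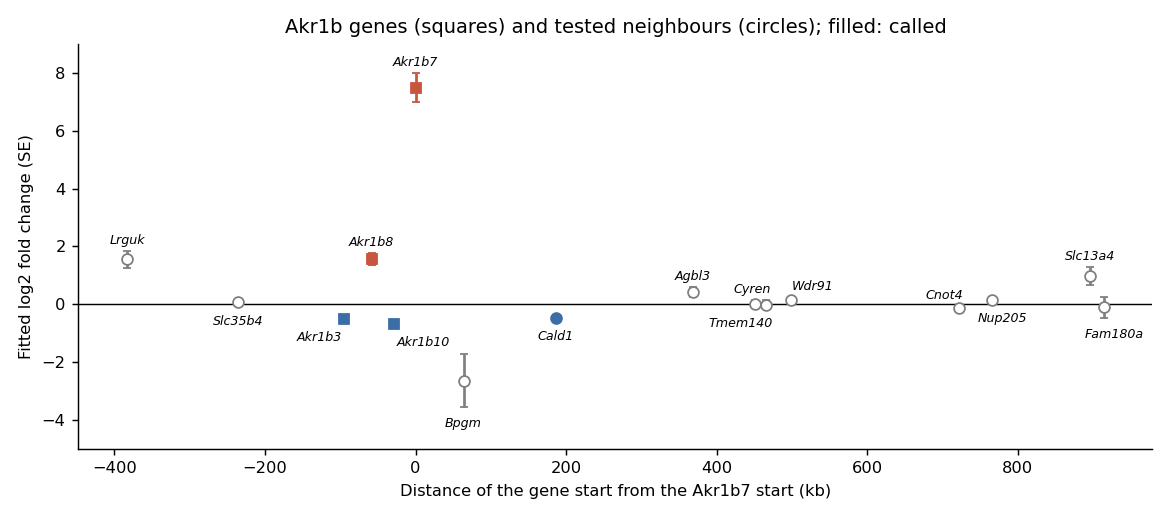
Fitted log2 fold change with its standard error (vertical axis) of the 4 Akr1b genes (squares) and the 12 tested neighbours (circles) against the distance of their start from that of Akr1b7 in kilobases. Called genes are filled. Akr1b7 and Akr1b8 lie above 0 and Akr1b3 and Akr1b10 below it, and of the neighbours Cald1 is filled.

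Further members of the aldo-keto reductase superfamily showed no call. Of 14 gene symbols listed for them, 13 (all but Akr1b1) were found in the count files and 6 were tested. By edgeR 0 were called (0% against 33.5% of all tested genes), by DESeq2 also 0, and 1 had an unadjusted edgeR p under 0.05. This was Akr1c13, at 0.528 ± 0.194 CPM in WT and 1.02 ± 0.176 in TAZG197V, with no overlap. It also passed the adjusted p (log2 fold change 0.88, edgeR adjusted p = 0.0406), but its mean count was too low for a call. Akr1c14, a hydroxysteroid dehydrogenase, was at 10.5 ± 3.05 and 7.59 ± 0.927 CPM (log2 fold change -0.36, edgeR adjusted p = 0.13), and it was called lower without WT 4 or without TAZG197V 4. The Kcnab genes, which encode beta subunits of potassium channels, gave adjusted p-values of 0.107 for Kcnab1, 0.529 for Kcnab2 and 0.17 for Kcnab3 by edgeR. Of Akr1c6 and Akr1c20 no read was counted in any library.

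The pathways of the members were then described. After aldose reductase, the polyol and fructose pathway had 7 tested genes, of which 0 were called higher and 2 lower (28.6% called against 33.5% of all tested genes). Khk, ketohexokinase, changed by -0.67 on the log2 scale (edgeR adjusted p = 0.000623). Sord, which oxidises the sorbitol made by Akr1b3, had 110 ± 17.1 CPM in WT against 130 ± 17.1 in TAZG197V (edgeR adjusted p = 0.162). Glyctk passed the adjusted p and was higher (log2 fold change 0.85, edgeR adjusted p = 0.0208), with no overlap of the genotypes. At 0.695 ± 0.245 CPM in WT and 1.13 ± 0.0657 in TAZG197V, it had too few counts for a call. Without WT 4, 4 genes of this pathway were called, among them Tkfc, which was higher, and Cryl1, which was lower, and the count was also 4 without TAZG197V 4.

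On the glucuronate and ascorbate route of Akr1a1, 2 of 4 tested genes were called higher and 0 lower (50% called against 33.5% of all tested genes). Slc23a2, an ascorbate transporter, rose from 29.6 ± 1.14 CPM in WT to 40.0 ± 2.69 in TAZG197V (0.45 on the log2 scale, edgeR adjusted p = 0.0012). Ugp2, which makes UDP-glucose, rose by 0.45 as well (edgeR adjusted p = 0.0172), but its genotypes overlapped and it was not called without TAZG197V 1, which left 1 gene called, nor without WT 1. Ugdh, which makes UDP-glucuronate, had a log2 fold change of -0.28 (edgeR adjusted p = 0.0997), and it was called lower without WT 1 and without both number 4 libraries. Rgn, the gluconolactonase of ascorbate synthesis, passed the adjusted p (log2 fold change -1.36, edgeR adjusted p = 0.0106) but had too few counts for a call, at 0.605 ± 0.243 and 0.245 ± 0.0895 CPM. Miox, an oxygenase of inositol that yields glucuronate, was under the filter with 0 to 2 counts in WT libraries and 8 to 25 in TAZG197V libraries. Gulo, the last enzyme of ascorbate synthesis, had 0 counts in all libraries.

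Of 32 tested genes for other aldehyde and ketone metabolism, 6 were called higher and 9 lower (46.9% against 33.5% of all tested genes), with a median log2 fold change of -0.06. Esd, an esterase of the formaldehyde route, rose from 52.3 ± 2.55 CPM in WT to 121 ± 13.7 in TAZG197V, which was 1.20 on the log2 scale (edgeR adjusted p = 2.84e-06). Aldh1b1, a mitochondrial aldehyde dehydrogenase, changed by 0.94 and Rdh11, a retinal reductase, by 0.88, with edgeR adjusted p-values of 0.00162 and 0.00204. Among the lower genes, Aldh1a1 changed by -0.93 (edgeR adjusted p = 0.0245), although its genotypes overlapped and WT 4 was at 84.5 CPM where the other WT libraries reached 31.5. It was not called without surrogate variables, with lane, or without WT 2, TAZG197V 1, TAZG197V 2 or TAZG197V 3. Aldh1a2, which like Aldh1a1 makes retinoic acid, changed by -0.75, and Ptgr1, which reduces alkenals, by -0.70 (edgeR adjusted p = 0.00921 and 0.0412), with overlap of the genotypes for both. The call of Aldh1a2 was lost with lane, with the replicate number as a block, without TAZG197V 4 and without both number 4 libraries. That of Ptgr1 was lost without WT 2, WT 3, WT 4, TAZG197V 1, TAZG197V 2 or TAZG197V 4, and without both number 4 libraries. Other lower genes held more firmly. Aldh4a1 and Aldh9a1 changed by -0.65 and -0.60 with no overlap of the genotypes (edgeR adjusted p = 0.000147 and 0.000835), and all 19 alternatives called them lower. Aldh5a1 and Dhrs4 changed by -0.52 and -0.47, also with no overlap (edgeR adjusted p = 0.000594 and 0.00308), and lost their call only at a fold change of 1.5. Aldh2, the main mitochondrial enzyme for acetaldehyde, had 252 ± 21.5 CPM in WT against 244 ± 11.5 in TAZG197V (edgeR adjusted p = 0.574). The glutathione transferases Gsta1 and Gsta2 passed the adjusted p (log2 fold changes 3.34 and 4.07) but had too few counts for a call, with 2 to 12 and 2 to 4 in WT libraries.

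NADPH is the cofactor of these reductases. The list for it holds enzymes that reduce NADP, further enzymes of the pentose phosphate pathway and NAD kinases, and of its 15 tested genes 6 rose and 2 fell (53.3% called against 33.5% of all tested genes). Aldh1l2, the mitochondrial formyltetrahydrofolate dehydrogenase, rose from 11.8 ± 4.23 CPM in WT to 85.5 ± 6.42 in TAZG197V (2.97 on the log2 scale, edgeR adjusted p = 2.62e-05). The enzymes of the pentose phosphate pathway Pgls and Pgd rose by 0.71 and 0.28, and the malic enzymes Me2 and Me1 rose by 0.61 and 0.45 (edgeR adjusted p from 0.000206 to 0.00751). Mthfd1, a folate enzyme, rose by 0.48 (edgeR adjusted p = 0.00127). In contrast, Me3 and the mitochondrial NAD kinase Nadk2 both changed by -0.59 (edgeR adjusted p = 0.000604 and 0.00048). G6pdx, the first enzyme of the pentose phosphate pathway, was at 8.22 ± 1.51 and 7.48 ± 0.782 CPM (edgeR adjusted p = 0.487). Nnt, the mitochondrial transhydrogenase that C57BL/6J mice lack in full length, has 2 gene records and was left out of the list count. One record had 0 counts in all libraries, and the other had 2.88 ± 0.712 CPM in WT against 2.19 ± 0.463 in TAZG197V (edgeR adjusted p = 0.102), with overlap of the genotypes.

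Akr1b3 and Akr1b7 can also form prostaglandin F2 alpha. Of 12 tested genes of the prostaglandin route, 1 was called higher and 1 lower (16.7% called against 33.5% of all tested genes). Ptges3, a cochaperone that also acts as prostaglandin E synthase, rose by 0.35 (edgeR adjusted p = 0.00706), and Ptgis, prostacyclin synthase, changed by -0.57 (edgeR adjusted p = 0.00255). Ptgis was not called without surrogate variables, with 1 of them or with lane in their place, which left 1 gene called. Without WT 4, 4 genes were called, and Ptgds and Fam213b were then lower too. Ptgfr, the receptor of prostaglandin F2 alpha, was at 8.91 ± 6.13 and 7.88 ± 1.94 CPM (edgeR adjusted p = 0.735).

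**Figure D5:**
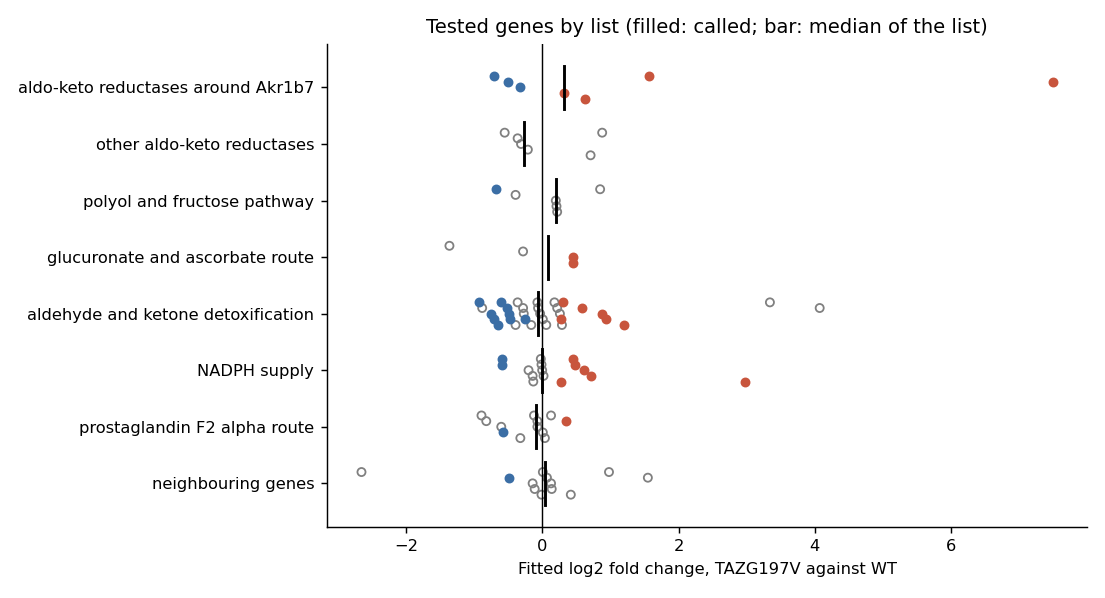
Fitted log2 fold change (horizontal axis) of tested genes in the 7 members and in the 7 lists described here, with called genes filled and the median of each list as a bar. The medians of the lists lie between -0.26 and 0.20, and Akr1b7 lies farthest to the right at 7.49.

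Akr1b7 marks tissues other than heart, so defining genes of these tissues were read in the same libraries. Of 8 adrenal cortex genes, Cyp11b1, Cyp11b2 and Cyp21a1 had 0 counts in all libraries, Nr5a1 had 3 over all libraries, and the summed level was 3.65 to 4.96 CPM in WT and 3.16 to 4.95 in TAZG197V, nearly all of it Star. Hsd3b1, a steroid dehydrogenase on this list, was too low to be tested, with 0, 0, 1 and 0 counts in WT and 5, 2, 4 and 2 in TAZG197V, which did not overlap. Of 5 genes of the vas deferens and epididymis, Crisp1 had 0 counts and the sum reached 0.055 CPM in WT and 0.147 in TAZG197V. The 5 genes of renin cells and kidney summed to at most 0.33 CPM in WT and 0.147 in TAZG197V, with Umod and Slc34a1 at 0. Of 6 intestinal genes, Cdx1, Cdx2 and Fabp2 were at 0, and Lgals4 made up nearly all of the sum of 37.7 to 63.0 CPM in WT and 30.3 to 36.5 in TAZG197V. Lgals4 was called lower (log2 fold change -0.57, edgeR adjusted p = 0.00291) with no overlap of the genotypes, and also with any 1 library left out. Vil1, the villin of the brush border, was not tested, and its 0.0677 to 0.272 CPM in WT and 0.293 to 0.618 in TAZG197V did not overlap. The 5 liver genes summed to 0.165 to 0.536 CPM in WT and 0.378 to 1.83 in TAZG197V, with Serpina1a and Fgb at 0. Ttr, transthyretin and the liver gene that was tested, passed the adjusted p and was higher (log2 fold change 1.14, edgeR adjusted p = 0.0184), with overlap of the genotypes and too few counts for a call.

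Among cell types of the heart, 4 of 7 cardiomyocyte genes were called lower and 0 higher, where 15.1% of all tested genes were called lower, and their sum was 55900 to 62800 CPM in WT and 46500 to 50700 in TAZG197V. Of the fibroblast genes 4 of 6 were lower, with sums of 887 to 1470 and 610 to 840 CPM. Of the endothelial genes 2 of 5 were lower, with sums of 652 to 924 and 525 to 681 CPM. Macrophage genes, 0 of 5 called, summed to 187 to 279 and 178 to 275 CPM, and adipocyte genes summed to 0.311 to 21.8 and 0.182 to 3.81 CPM. Of the 6 adipocyte genes 1 was tested, Cfd, which was called lower (log2 fold change -1.48, edgeR adjusted p = 0.0439). Its genotypes overlapped, and WT 2 was at 10.1 CPM where the other WT libraries ran from 0.117 to 1.52. Cfd was not called without surrogate variables, with 1 of them, with lane, with the replicate number as a block, or without WT 1, WT 2, TAZG197V 1, TAZG197V 2 or TAZG197V 3. The fibroblast count was 1 without TAZG197V 2 and 2 without TAZG197V 1. The endothelial count was 0 without WT 3 or TAZG197V 2, 1 without WT 2, TAZG197V 1 or TAZG197V 4, and 4 without TAZG197V 3. The cardiomyocyte count ran from 3 to 5 with 1 library left out. With the replicate number as a block, the fibroblast genes Dcn and Col1a2 were not called (edgeR adjusted p = 0.0517 and 0.0908). Over all alternatives the counts ran from 1 to 5 for cardiomyocyte, 1 to 5 for fibroblast and 0 to 4 for endothelial genes. No list of cell types was called higher in any gene. The part of cell make-up in the change of the members was not tested.

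The genes whose log2 CPM followed Akr1b7 most closely over the 8 libraries were Chchd6, Lonp1, Gyg, Pmm1 and 2010204K13Rik, with Pearson's r of 0.9994, 0.9984, 0.9983, 0.9983 and 0.9983. As the 8 points fall into the 2 genotypes, a high r comes largely from their separation. Separation alone does not set the order, since Akr1a1 and Akr1b8, without overlap, had r of 0.96 and 0.932 and ranked 687 and 1209. Chchd6, like Akr1b7, was higher in TAZG197V 1 and 2 (23.8 CPM in both) than in TAZG197V 3 and 4 (20.4 and 18.3 CPM). Lonp1, a mitochondrial protease, was at 174 CPM in WT and 703 CPM in TAZG197V, and Gyg, glycogenin, at 160 and 496 CPM. When each library was taken as its deviation from the mean of its genotype, the 5 closest genes were Otub2, Fam19a3, Eef1e1, Gtf2h3 and Ascc2, with r from 0.9787 to 0.9853. On that measure Akr1b7 had r of 0.70 with Akr1e1 and 0.69 with Akr1b10, but 0.06 with Akr1b8, the other Akr1b gene that was higher. Akr1e1 and Akr1b10 ranked 1168 and 1288 by this r among 15083 genes, so many other genes followed Akr1b7 more closely. Among the other members the highest r were 0.91 for Akr1b3 with Akr7a5, 0.86 for Akr1a1 with Akr1e1 and 0.81 for Akr1b3 with Akr1b10. The lowest were -0.58, -0.47 and -0.44, for Akr1b8 with Akr7a5, Akr1b10 and Akr1b3. These values rest on 8 libraries that share lanes and scaling, and deviations in WT carry counting noise where Akr1b7 had 0 to 4 counts.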

How the data were processed

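RNA of 8 mouse hearts (4 WT, 4 TAZG197V) was sequenced as single-end reads of 50 bases. As the labels and the methods give it, the authors used bcl2fastq 2.20.0, FastQC 0.11.9, STAR 2.7.3a with mm10 and at most 2 mismatches, and featureCounts of Subread 2.0.0. The deposited values are raw counts per Ensembl gene. The strand setting, the annotation and the treatment of multimapping reads are not given in the sources used here. A further 92 spike-in entries summed to 0 counts and were left out.

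Groups follow the sample titles. With edgeR 4.0.16 in R 4.3.3, filterByExpr kept 15084 genes, TMM set the scaling, svaseq of sva 3.50.0 (seed 1) gave 2 surrogate variables, and the two-sided quasi-likelihood F-test was adjusted by Benjamini-Hochberg over all genes. The standard error is the log2 fold change divided by the root of F. Symbols came from GENCODE M21 for 55144 genes, while 327 had none. Coding sequences were aligned with Biopython 1.88. The code was tested on simulated counts. Correlations used log2(CPM + 0.5), and the interval of the Akr1b7 ratio is Clopper-Pearson.

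The individual result of 1 gene of the polyol list is not reported here or plotted, although it is in the counts and the median of its list. The members and all gene lists were chosen with earlier results of these data known. Named are all members, called list genes by size of change (up to 6 a list) and list genes needed for an enzyme's role, called neighbours, the genes most like Akr1b7, Taz and marker genes. More than 6 are named for NADPH supply (all called genes) and aldehyde metabolism (further lower genes without overlap). Some uncalled genes are named where they passed the adjusted p with too few counts or where their call depended on the setting. Replicates differed by a chi-square of at least 10.2 per gene, so none repeats another. Alternatives were DESeq2 1.42.0, other covariates, scalings, filters and limits, and omission of libraries. Omission of both number 4 libraries together, and levels per kilobase of coding transcript, were chosen after seeing the data. Depth limits Akr1b7 in WT, where 0 to 4 counts were seen.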

Additional observations from a re-analysis of the deposited data

Results flagged for a closer look

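Dixon's ratio, the gap of the highest or lowest library to the next one over the range of its genotype, was computed for the 7 members and 10 marker sums in both genotypes. In 7 of 34 sets of 4 libraries it passed the 95% critical value for 4 values, where chance gives about 1.7. Among the members this was Akr7a5 in TAZG197V 3, which was low at 27.7 CPM against 30.6 to 30.8 in the other TAZG197V libraries (ratio 0.924). The other 6 were high marker sums. WT 2 stood out for fibroblast genes (1470 CPM against 887 to 942, ratio 0.905), adipocyte genes (21.8 against 0.311 to 3.65, ratio 0.845) and genes of renin cells and kidney (0.33 against 0 to 0.0388, ratio 0.882). WT 3 stood out for endothelial genes (924 against 652 to 684, ratio 0.883). TAZG197V 4 stood out for adipocyte genes (3.81 against 0.182 to 0.297, ratio 0.968) and liver genes (1.83 against 0.378 to 0.472, ratio 0.935). Akr1b7 and the other Akr1b genes had no such library.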

How the results depend on the processing

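The direction of all 7 members was kept under all 19 alternatives, and all 7 were called in 18. Where only the limit on fold change or mean count was changed, the main fit was reused and no direction could change. With a fold change of at least 1.5, 4 members and 1843 genes in all were called (998 higher, 845 lower), against 5060, and the lists fell to 0 genes of the glucuronate route, 8 of aldehyde metabolism, 5 of NADPH supply, 0 of the prostaglandin route and 0 neighbours. With no minimum mean count, 1 other aldo-keto reductase (Akr1c13) and 3 neighbours were called. List genes called in addition were Glyctk, Gsta1 and Gsta2, which were higher, and Rgn, which was lower. Without both number 4 libraries the counts were 1 other aldo-keto reductase, 4 polyol genes, 4 prostaglandin genes and 2 neighbours. The prostaglandin route had 1 called gene without surrogate variables, with 1 of them and with lane. The neighbours called were 2 with DESeq2, with DESeq2 size factors and without a low-count filter. With 1 library left out, the counts ran from 3675 to 4816 for all genes, 0 to 1 for other aldo-keto reductases, 2 to 4 for the polyol list, 1 to 2 for the glucuronate list, 10 to 14 for aldehyde metabolism, 8 to 9 for NADPH supply, 2 to 4 for the prostaglandin route and 1 to 2 for the neighbours, and stayed at 7 for the members. The cause of these shifts was not tested. With the replicate number as a block, 4272 genes and all 7 members were called. Of list genes named in the text, markers of cell types aside, the block added a call of Sord (log2 fold change 0.25) and ended that of Aldh1a2 (-0.68). Deviations of libraries with the same number correlated at 0.254, 0.0343, 0.27 and 0.407 for numbers 1 to 4. Between genotypes, those with different numbers correlated at -0.455 to 0.314, and 5 of 8 libraries correlated best with their own number. These values do not settle whether the numbers are pairs. The main fit did not take them as pairs, and the block is given beside it. Per kilobase levels of Akr1b7 in TAZG197V were 8.87 over all exon bases and 12.2 over those not shared with Gm13857.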
